A study of Mus musculus with 17 samples.

Results

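H3K27ac, acetylation of lysine 27 on the tail of histone H3, marks active promoters and enhancers. The mark is written by the acetyltransferases p300 and CBP and removed by histone deacetylases, and at a promoter it lies on the nucleosomes that flank the start site. In CUT&RUN, an antibody brings a nuclease to the mark and the DNA that it releases is sequenced. The promoter regions whose H3K27ac value dropped with the 6-OHDA lesion are described here. They were chosen by the H3K27ac values of sham and 6-OHDA: a region was taken when its value was at least 1 in any group and when (6-OHDA + 1)/(sham + 1) was at most 0.5. The table lists 11424 regions, of which 11326 passed the minimum, and 512 of these, nearest to 490 genes, met the rule. They are called lost regions below, although most of them kept some signal.

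The mice were female ICR mice, 8 weeks old at surgery. Sham mice carried no lesion. The 6-OHDA group received 6-hydroxydopamine, a toxin taken up by catecholamine neurons, on one side into the substantia nigra. The 6-OHDA+NDST3 group received the same lesion and, 5 days later, an injection into the substantia nigra of NDST3, a heparan sulfate N-deacetylase/N-sulfotransferase. The study's methods describe an adeno-associated virus with human NDST3 and also a lentivirus, both with the CMV promoter, which is not restricted to neurons. Which vector the mice of these samples received is not stated. By the study's methods, lesioned mice without NDST3 received saline instead. No sample came from mice given a virus without NDST3, so effects of the virus and of NDST3 cannot be told apart here. The labels name the tissue as brain. CUT&RUN was made from 2 libraries per group, but the table holds 1 column per group, so no spread between libraries can be given and no test was run on it. ATAC-seq, a measure of open chromatin, had 1 library per group. RNA-seq had 2 sham libraries, 1 6-OHDA library and 2 6-OHDA+NDST3 libraries of 51003699 to 70533326 reads. Nothing in the labels says whether libraries of a group came from separate mice, so RNA-seq p-values measure the spread between these libraries.

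A property of the table limits what the third column can show. In 0 of the 11424 regions was the 6-OHDA+NDST3 value below the 6-OHDA value. It was equal in 425 regions and higher in 10999. The ATAC-seq table had no such limit, with 1355 of 3537 regions lower in 6-OHDA+NDST3 than in 6-OHDA. The H3K27ac table was therefore limited to regions with a 6-OHDA+NDST3 value at or above the 6-OHDA value, and a higher value in NDST3-treated mice than in lesioned mice is a property of the table in every region below. Regions with less signal in both lesioned groups, but least in the NDST3-treated one, could not be among the 512.

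The promoters of several lost regions are printed first, to show the DNA in which these regions lie. Stat2 (a transcription factor of interferon signalling), Cdk10 (a cyclin-dependent kinase) and Oga (the enzyme that removes O-GlcNAc from proteins) had some of the lowest ratios among lost regions centred less than 250 bases upstream of the start. Sdhb, Ndufs8 and Atp5pb encode subunits of the respiratory chain and of ATP synthase, the group with the most lost genes among the named pathways apart from zinc finger genes. Each line gives the 250 bases upstream of the start site from RefSeq, build GRCm38.p6, 5′ to 3′ on the strand of the gene. Capitals mark matches, on either strand, to TATAAA (the TATA box), CCAAT (the site of NF-Y), CACGTG (the E-box read by MYC and USF), GGGCGG (the GC box of SP1), TGANTCA (the AP-1 site), TGACGTCA (the CRE of CREB), CCGGAAG (the core that ETS factors bind) or GCATGCG (a motif of NRF1, a regulator of nuclear genes for mitochondrial proteins).
Stat2 (chr10:128270248-128270497, + strand): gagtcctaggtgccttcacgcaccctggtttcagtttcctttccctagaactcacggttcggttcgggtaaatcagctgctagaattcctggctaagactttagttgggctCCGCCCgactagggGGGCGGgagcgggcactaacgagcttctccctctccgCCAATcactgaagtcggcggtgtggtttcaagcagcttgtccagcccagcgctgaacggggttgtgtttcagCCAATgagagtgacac
Cdk10 (chr8:123224591-123224840, + strand): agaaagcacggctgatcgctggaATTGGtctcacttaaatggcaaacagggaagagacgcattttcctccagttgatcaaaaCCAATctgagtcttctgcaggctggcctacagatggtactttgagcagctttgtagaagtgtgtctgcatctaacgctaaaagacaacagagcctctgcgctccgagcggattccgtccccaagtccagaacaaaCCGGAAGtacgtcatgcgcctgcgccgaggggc
Oga (chr19:45783554-45783803, - strand): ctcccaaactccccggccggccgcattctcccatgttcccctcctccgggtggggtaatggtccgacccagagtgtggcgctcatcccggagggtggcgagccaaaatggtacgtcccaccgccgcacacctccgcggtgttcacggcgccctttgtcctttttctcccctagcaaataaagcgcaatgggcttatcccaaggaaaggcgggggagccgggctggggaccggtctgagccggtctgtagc
Sdhb (chr4:140961021-140961270, + strand): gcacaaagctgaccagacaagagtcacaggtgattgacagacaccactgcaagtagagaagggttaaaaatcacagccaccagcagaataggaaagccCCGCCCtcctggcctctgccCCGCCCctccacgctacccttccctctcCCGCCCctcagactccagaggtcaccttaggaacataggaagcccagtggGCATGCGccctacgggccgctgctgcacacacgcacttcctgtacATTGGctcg
Ndufs8 (chr19:3912775-3913024, - strand): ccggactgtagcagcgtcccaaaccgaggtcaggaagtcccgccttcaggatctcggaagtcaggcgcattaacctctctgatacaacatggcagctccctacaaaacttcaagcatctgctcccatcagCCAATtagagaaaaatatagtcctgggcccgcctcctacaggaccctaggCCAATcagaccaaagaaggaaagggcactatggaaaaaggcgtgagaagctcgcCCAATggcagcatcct
Atp5pb (chr3:105959264-105959513, - strand): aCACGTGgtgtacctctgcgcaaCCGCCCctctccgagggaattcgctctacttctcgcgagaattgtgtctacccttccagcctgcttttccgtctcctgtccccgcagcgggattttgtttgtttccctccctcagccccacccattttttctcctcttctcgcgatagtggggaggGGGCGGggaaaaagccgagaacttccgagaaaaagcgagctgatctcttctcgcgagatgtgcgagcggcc

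None of these 6 stretches held TATAAA, but that of Atp5mg, also a gene of a lost region and not printed, did. GC content was 64.4% in the Oga stretch, with 20 CpG dinucleotides, and 53.2% in the Ndufs8 stretch, with 9. The Stat2 promoter carried GGGCGG on either strand and, closer to the start, CCAAT at 2 places, and the Ndufs8 promoter carried CCAAT at 3 places. The Cdk10 promoter held CCGGAAG near its 3′ end, and the Sdhb promoter held GCATGCG. These letters are a description of the window and say nothing of binding. The H3K27ac coordinates themselves belong to a newer build than GRCm38, so the regions were placed on the genes by name and by the distance to the start site in the table.

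In most measures the promoters of genes of lost regions were close to those of all genes with an H3K27ac region, a set that includes them. Of the genes of lost regions, 290 had exactly 1 promoter among the RefSeq sequences used (250 bases before to 50 after the start). Their median GC content was 62.3% (quartiles 56.3% and 67.3%), against 61.3% for 4376 genes with any H3K27ac region and 52.3% for all 22862 promoters. The ratio of observed to expected CpG was at least 0.6 in 83.4% of the promoters of lost regions, in 75.9% of those of genes with any region and in 35.7% of all. GGGCGG was found in 64.8% of the promoters of lost regions and in 65.6% of those of genes with a region, against 35.2% of all. TATAAA was found in 6.21%, 6.26% and 14.8% of the same 3 groups. CCGGAAG was found in 21.7%, 20.2% and 9.12%. GCATGCG was found in 10.7% of the promoters of lost regions, which is 31 genes, in 7.52% of those with any region and in 3.58% of all. Among 533 genes of regions at least 2 times higher in 6-OHDA, 6.0% held GCATGCG and 76.4% had a CpG ratio of at least 0.6. CACGTG was found in 12.1%, 10.1% and 7.12%. CCAAT was found in 39.0%, 37.8% and 38.2%. TGANTCA and TGACGTCA were found in 3.79% and 3.45% of the promoters of lost regions and in 4.32% and 4.0% of those with any region. The lost regions thus lay in CpG-rich promoters of the kind that most regions of the table had.

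Lost regions lay close to the start site. Their median length was 100 bases, and 80.7% had exactly this length, against 71.6% of all regions that passed the minimum and 80.6% of the 880 regions at least 2 times higher in 6-OHDA. The centre of a lost region lay at a median of 108 bases upstream of the start (-108, quartiles -305 and -1), against -121 (quartiles -400 and 24) for all. For the 880 regions the median was -106 (quartiles -359 and 33), so a median this close was not particular to lost regions. The bin from 250 bases upstream to the start held 46.7% of lost regions, 33.8% of all and 35.1% of the 880. In that bin 6.24% of all regions were lost, against 3.49% to 3.88% in the bins farther upstream or downstream. From 100 to 300 bases downstream lay 11 of the 512 lost regions, 7 in the nearer and 4 in the farther 100 bases, which is 1.37% and 0.781%, against 2.91% and 2.93% of all. Regions of exactly 100 bases were lost in 5.09% of cases and longer ones in 3.08%. Lost regions were found on every chromosome with a full name, from 2.92% of the regions on chromosome 16 to 5.90% on chromosome 2.

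**Figure D1:**
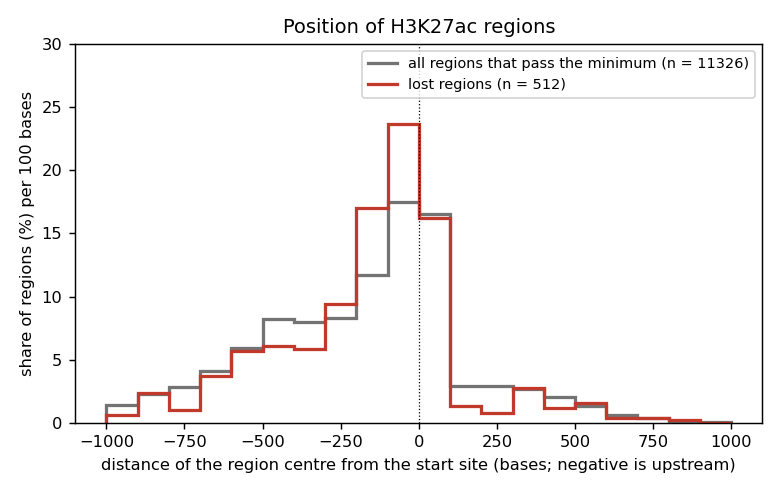
Share of regions (percent, vertical axis) in each 100 bases by the distance of the region centre from the start site (bases, horizontal axis, negative upstream), for the 512 lost regions and for all 11326 that passed the minimum. The lost regions stand above all regions in the 200 bases upstream of the start, with 23.6% against 17.5% in the nearest 100 bases, and below them from 100 to 300 bases downstream.

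The values that chose the members are given as a description, without a test. In sham, the lost regions had a median H3K27ac value of 15.6 (range 2.0 to 54.8), against a median of 15.0 over all regions. In 6-OHDA the median was 5.45 (range 0.5 to 23.9), against 16.4 over all regions. The median log2 ratio of 6-OHDA to sham, each plus 1, was -1.24 over the lost regions and 0.13 over all. The lost regions were 4.52% of the regions that passed the minimum, and 7.77% (880 regions) were at least 2 times higher by the same measure. Over 5 equal groups of regions ordered by the sham value, the share lost ranged from 3.89% to 5.12%. In 23 lost regions the 6-OHDA value was 0.5, the lowest value in that column, so the ratio there is set by the lowest value and the added 1.

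**Figure D2:**
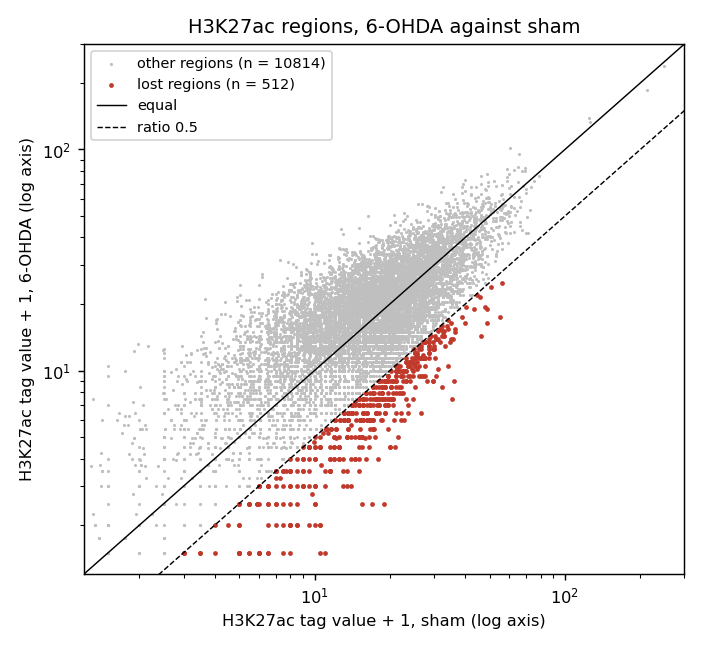
H3K27ac value plus 1 in sham (horizontal) and in 6-OHDA (vertical) for each region that passed the minimum, both on log axes, with 1 pooled value per group and no error. The 512 lost regions lie on or under the dashed line at a ratio of 0.5 and span sham values from 2.0 to 54.8.

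The lost regions highest in sham lay at genes of varied function. Osbpl8, an oxysterol-binding protein that moves phosphatidylserine to the plasma membrane, had 54.8 in sham, 23.9 in 6-OHDA and 36.3 in 6-OHDA+NDST3. Wwc2, a protein of the Hippo pathway, had 53.8, 16.4 and 38.2. Trappc2l, a subunit of the TRAPP complex of Golgi traffic, had 47.8, 15.4 and 35.8. In all 3 the 6-OHDA+NDST3 value lay between the others. Gpr19 (an orphan receptor), Ddx20 (a helicase of the SMN complex), Zfp970, Zfp292 (zinc finger genes), Jade1 (a subunit of the HBO1 acetyltransferase complex), Slc66a2 and 9430083A17Rik made up the 10 highest, with 42.2 to 49.8 in sham and 13.4 to 22.9 in 6-OHDA.

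The lowest ratios came from regions with few tags in 6-OHDA, though some lay above the sham median of the lost regions (15.6). Fam114a2 had 18 in sham, 1.5 in 6-OHDA and 8.0 in 6-OHDA+NDST3. Snrpa, an snRNP protein of the spliceosome, had 10.0, 0.5 and 3.0. Oga, whose promoter is printed above, had 9.5, 0.5 and 1.0. Stat2 had 7.0, 0.5 and 5.0. Such 6-OHDA values lie close to the lowest value of the column, and the ratio changes by much with 1 more unit of signal. Gm11186, Gm33035, Gm3411, Fam210a, Gpr6 and Fam76a made up the 10 lowest, all with 0.5 to 1.5 in 6-OHDA. At the other end, the members nearest to the threshold were Ddx18 (5.0 in sham, 2.0 in 6-OHDA), 2900009J06Rik (2.0 and 0.5) and Ccdc88a (4.0 and 1.5), each at a ratio of exactly 0.5. Just outside lay Zfp788 (36.7 and 17.9, ratio 0.501), Plod3 (31.7 and 15.4) and Cetn3 (30.7 and 14.9), so regions on both sides of the threshold had like ratios.

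Many genes of lost regions had another region that was not lost. For 242 of the 490 genes every region in the table was lost, and 230 of these genes had only 1 region. The other 248 genes had 353 further regions that were not lost, with a median log2 ratio of -0.06, against 0.13 over all regions, and 12 of these 353 were at least 2 times higher in 6-OHDA. At 22 genes 2 regions were lost, and at no gene 3. The following examples were chosen after the values were seen. Regions of a gene can lie at different start sites, so the counts are per gene and not per promoter. Stx5a, a SNARE of the Golgi, had 2 lost regions, with 23.6 and 17.9 in sham and 8.45 and 6.45 in 6-OHDA, while its other region had 3.62 and 5.95. In Romo1, a small mitochondrial inner membrane protein, 2 regions went from 16.6 and 19.1 to 6.45 and 7.45, and the other 2 were higher in 6-OHDA, at 18.6 and 21.1 against 9.22 and 13.3. In Vrk1, a nuclear kinase, 2 regions had 6.00 and 12.9 in sham and 1.5 and 5.45 in 6-OHDA, and the other region, which was not lost, had 18.1 and 10.45 (ratio 0.6).

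In 6-OHDA+NDST3 the lost regions had a median of 11.5 (range 0.5 to 45.6), between the 6-OHDA and sham medians. Over all regions the same column had a median of 22.9, above both other columns. The median log2 ratio of 6-OHDA+NDST3 to sham was -0.40 (quartiles -0.81 and -0.02) over the lost regions and 0.53 over all. Both ratios have the sham value, which chose the members, as denominator. On the log2 scale 335 of the 512 values (65.4%) were nearer to sham than to 6-OHDA, against 32.4% of all regions and 0 of the 880 regions at least 2 times higher in 6-OHDA. This measure uses the columns that chose the members, in a table without lower 6-OHDA+NDST3 values, so nothing is read from it. The share also depends on the scale of the columns: with the columns brought to the same median it was 31.9%. The value was at or above sham in 126 lost regions (24.6%, against 81.3% of all regions) and at most 0.5 of sham, each plus 1, in 72 (14.1%). All 72 regions of the table with so low a ratio to sham were lost regions, which the limit of the table imposes, since a region with such a 6-OHDA+NDST3 value had an equal or lower 6-OHDA value.

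**Figure D3:**
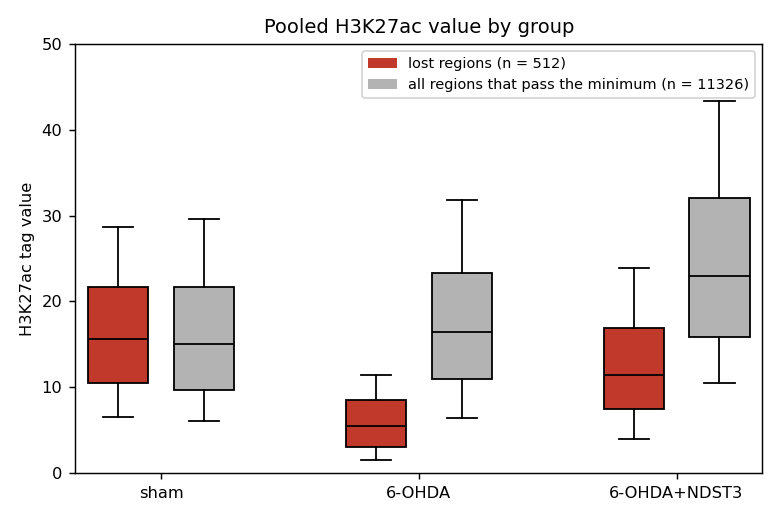
H3K27ac value (vertical axis) in the pooled column of each group, for the 512 lost regions and for all 11326 regions that passed the minimum. Boxes give the quartiles and the median and whiskers the tenth and ninetieth percentiles over regions, not replicate error, and no region of the table has a 6-OHDA+NDST3 value below its 6-OHDA value.

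Among lost regions of at least 5 in sham, Hras (a small GTPase of growth factor signalling) had 7.5 in sham, 3.0 in 6-OHDA and 18.5 in 6-OHDA+NDST3. Eny2, a subunit of the SAGA and TREX-2 complexes, had 7.0, 2.0 and 14.5. Npm1, the nucleolar protein nucleophosmin, had 6.5, 2.5 and 13.0. Cog4, a Golgi tethering subunit, had 13.1, 5.95 and 26.8, and 5430416N02Rik had 9.0, 3.0 and 19.0. These 5 had the highest ratios of 6-OHDA+NDST3 to sham. At the low end, Mcm3ap, the GANP protein of mRNA export, had 19.0 in sham and 3.5 in both lesioned groups. Pals1, a cell polarity scaffold, had 7.0 in sham and 1.0 in both. Gm10406 had 5.0 and 0.5 in both. Oga and Gm3411 were next to them, with 1.0 and 2.0 in 6-OHDA+NDST3. Of the 512 lost regions, 15 had the same value in both lesioned groups.

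Genes of lost regions included respiratory chain subunits, splicing factors and zinc finger genes, and most were in none of the gene lists. The lists differ in size, so each count is given with the genes of the list that had a region. Oxidative phosphorylation had 8 genes with a lost region among 66 with any region (12.1%), against 490 of 7204 genes overall. These were Cox5b and Cox8b (complex IV), Uqcrfs1 (complex III), Ndufs8 and Ndufa5 (complex I), Sdhb (complex II) and Atp5pb and Atp5mg (ATP synthase). Sdhb had 20.1 in sham, 6.95 in 6-OHDA and 16.9 in 6-OHDA+NDST3. Ndufa5 had 25.1, 9.45 and 15.4. Uqcrfs1 had 27.6, 10.9 and 15.4. Yet the list as a whole was not lower in 6-OHDA, with a median log2 ratio of 0.17 over its regions and 5 regions at least 2 times higher. Splicing factors had 6 of 40 genes (15%): Hnrnpk, Hnrnpr, Srsf4, Srsf7, Prpf3 and Snrpa. C2H2 zinc finger genes named Zfp had 15 of 259 (5.79%), with 17 regions. Ribosomal protein genes had 3 of 54 (5.56%), Rps15a and Rpl29 among them, antioxidant genes 2 of 13 (Gpx4 and Prdx2), and proteasome genes 0 of 26. Single genes were Mrpl37 of 38 for the mitochondrial ribosome, Ears2 of 22 for tRNA synthetases, Kat2b (the acetyltransferase PCAF) of 25 for lysine acetylation, and H2bc14 of 25 for histones. The shares of the zinc finger, ribosomal protein, mitochondrial ribosome, proteasome, tRNA synthetase, lysine acetylation and histone lists lay below that over all genes.

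The neuronal lists had few genes with an H3K27ac region, lost or not. Of the synaptic vesicle genes, 1 of 12 with a region (8.33%) had a lost one: Syt1, the calcium sensor of vesicle release, with 14.1 in sham, 6.45 in 6-OHDA and 7.94 in 6-OHDA+NDST3. Dnajc6, which encodes auxilin, the clathrin-uncoating protein mutated in juvenile parkinsonism, was the 1 of 6 genes for inherited Parkinson disease (16.7%) and had 12.6, 5.45 and 16.9. Junb, an immediate early AP-1 gene, was 1 of 8 (12.5%), with 35.3, 13.9 and 17.4. Over all regions of each list the median log2 ratio of 6-OHDA to sham was 0.44 (synaptic vesicle), -0.03 (inherited Parkinson disease) and -0.38 (immediate early). Over all regions that passed the minimum it was 0.13. None of 5 pan-neuronal genes, 15 receptors of glutamate and GABA or 9 heparan sulfate genes with a region had a lost one. No dopamine neuron marker had any region in the table, Th included, and of the markers of astrocytes, oligodendrocytes, endothelium and choroid plexus together only 5 genes had one, none lost. Ndst3 itself had 1 region, 14.1 in sham, 6.95 in 6-OHDA and 13.4 in 6-OHDA+NDST3, a ratio of 0.526, just outside the rule. The 5 regions of Ncoa7 had ratios of 6-OHDA to sham of 0.707 to 1.45, and none was lost. The study singled out this gene for a gain with NDST3, not for a loss with the lesion. The log2 ratios of 6-OHDA+NDST3 to 6-OHDA of these regions ran from 0.072 to 0.671, and the limit given above leaves no lower values. The RNA of Ncoa7 was 78.5 and 94.5 CPM in sham, 36 in 6-OHDA and 79.4 and 80.6 in 6-OHDA+NDST3 (CPM, read counts scaled to the library total).

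RNA-seq values of the same genes were not used by the rule and come from other libraries. Whether those libraries came from the same mice as the CUT&RUN libraries is not stated. Of the 490 genes, 455 were found in the RNA-seq table and 451 were tested. In the 6-OHDA library the RNA of these genes did not move as a group: the median log2 fold change against sham was -0.04 (quartiles -0.49 and 0.41), against -0.05 (quartiles -0.49 and 0.43) over 6704 genes with any H3K27ac region. By edgeR's quasi-likelihood test at an adjusted p under 0.05, 81 of the 451 genes (18%) fell and 77 (17.1%) rose. Over genes with any region 20.8% fell and 18.1% rose, and over all 19300 genes tested 17.1% fell and 18.8% rose, so the share that fell among genes of lost regions was near the background. With the call set at 2-fold or more and an unadjusted p under 0.05, 39 fell and 45 rose (8.65% and 9.98%, against 9.16% and 9.70% of genes with a region and 10.1% and 14.4% of all). The 89 tested genes of regions with a ratio of at most 0.33 gave 15 lower and 14 higher, with a median of 0.01. The 218 genes whose every region was lost gave 41 lower and 32 higher, with a median of -0.08.

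These RNA-seq calls rest on few libraries, and the spread of the 6-OHDA group, with 1 library, is borrowed from sham and 6-OHDA+NDST3. With sham replicate 1 left out, 0 of the genes of lost regions passed the adjusted threshold in edgeR, 172 had an unadjusted p under 0.05, and the rule of fold change with unadjusted p gave 36 lower and 47 higher (18.4% together, against 24.2% of all genes). With sham replicate 2 left out the numbers were 0, 137, and 26 lower and 39 higher (14.5% against 18.8%). With all libraries, DESeq2 called 103 lower and 79 higher (40% together, against 36.9% of all genes).

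**Figure D4:**
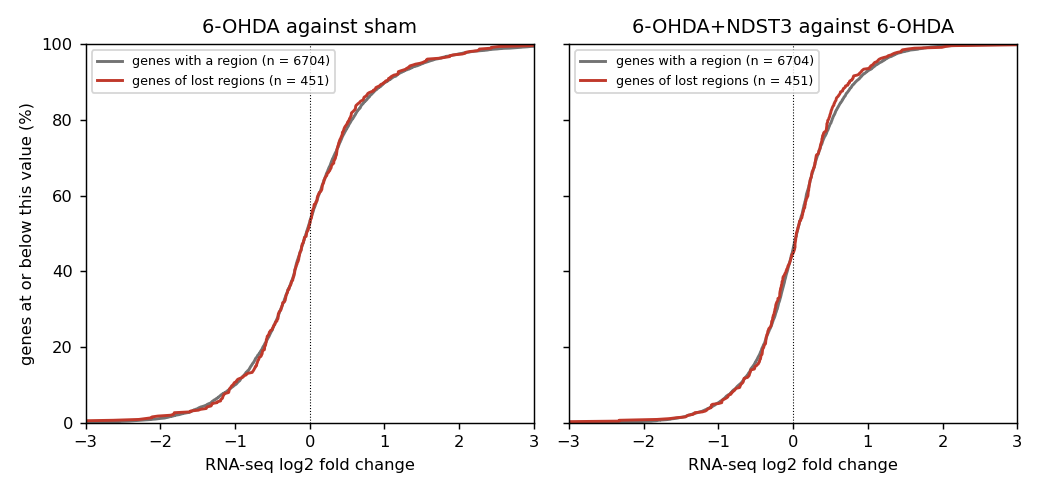
Cumulative share of genes (percent, vertical axis) by RNA-seq log2 fold change (horizontal axis, shown from -3 to 3), for 451 genes of lost regions and 6704 genes with any H3K27ac region, in 6-OHDA against sham and in 6-OHDA+NDST3 against 6-OHDA. Both comparisons share the 1 6-OHDA library. The 2 curves lie close together in each panel, with medians of -0.04 against -0.05 and 0.05 against 0.05.

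Among genes of lost regions the 10 largest falls in RNA included receptors and neuronal membrane proteins. In bulk tissue, fewer cells of a type and less RNA per cell cannot be told apart. Oprm1, the mu opioid receptor, had 3.49 and 5.14 CPM in sham, 0.697 in 6-OHDA and 2.77 and 2.97 in 6-OHDA+NDST3, a log2 fold change of -2.63 (SE 0.40, edgeR adjusted p = 0.0111) after the lesion. Its H3K27ac region had 22.6 in sham and 9.95 in 6-OHDA. Gpr6, an orphan receptor of striatal neurons, had 1.82 and 1.78 CPM in sham, 0.368 in 6-OHDA and 1.91 and 1.02 in 6-OHDA+NDST3 (log2 -2.29, SE 0.56, edgeR adjusted p = 0.0334). The H3K27ac value of Gpr6 was 9.0 in sham and 1.0 in 6-OHDA, among the 10 lowest ratios. In both genes the 6-OHDA library lay below all 4 others.

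Plppr3, a neuronal membrane protein of axon growth, had 69.8 and 66.5 CPM in sham, 24.2 in 6-OHDA and 50 and 53.4 in 6-OHDA+NDST3 (log2 -1.49, SE 0.12, edgeR adjusted p = 0.00823). Ankrd6, the Wnt pathway protein diversin, had 56.0 and 56.2 CPM in sham, 18.6 in 6-OHDA and 43.8 and 48.4 in 6-OHDA+NDST3. In these genes the 6-OHDA+NDST3 libraries lay between the 6-OHDA library and sham. B230312C02Rik, Stk32b, Tmem145, Rwdd2a, Gm38250 and Tcerg1l made up the 10 largest falls, from -1.38 to -3.56 on the log2 scale. Dnajc6 fell as well, from 320 and 348 CPM in sham to 134 in 6-OHDA, with 279 and 314 in 6-OHDA+NDST3 (log2 -1.31, SE 0.14, edgeR adjusted p = 0.00823). Syt1 had 709 and 675 CPM in sham, 356 in 6-OHDA and 437 and 653 in 6-OHDA+NDST3 (log2 -0.96, SE 0.27, edgeR adjusted p = 0.0463). Such falls were common in both lists, with or without a lost region. Of the synaptic vesicle genes 29 of 37 fell and 1 rose (median log2 fold change -1.32). Of the genes for inherited Parkinson disease 8 of 15 fell and 1 rose (median -0.47).

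The RNA of other genes rose although their H3K27ac region was lost. Col4a1, a collagen of the basement membrane, had 66.3 and 41.2 CPM in sham, 290 in 6-OHDA and 49.4 and 66.1 in 6-OHDA+NDST3 (log2 2.43, SE 0.31, edgeR adjusted p = 0.00889). Its H3K27ac region had 22.2 in sham and 6.45 in 6-OHDA. Junb had 12.8 and 12.6 CPM in sham, 54.0 in 6-OHDA and 21.2 and 28.3 in 6-OHDA+NDST3 (log2 2.08, SE 0.19, edgeR adjusted p = 0.00823), the opposite direction to its H3K27ac value given above. In the whole immediate early list 11 of 23 genes rose and 1 fell. Lgals3bp, a secreted galectin-3 binding protein, had 37.4 and 33.8 CPM in sham, 171 in 6-OHDA and 88.0 and 129 in 6-OHDA+NDST3. The NDST3-treated libraries were at sham levels for Col4a1 and above both sham libraries for Junb and Lgals3bp.

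Low-abundance genes also rose. Ly96, the MD-2 partner of the Toll-like receptor TLR4, had 0.738 and 0.275 CPM in sham and 2.69 in 6-OHDA (log2 2.43, SE 0.63, edgeR adjusted p = 0.0385). Fanci, of the Fanconi anaemia repair pathway, had 0.660 and 0.333 CPM in sham and 2.85 in 6-OHDA, and Dna2, a nuclease of DNA replication and repair, had 1.16 and 0.956 in sham and 5.01 in 6-OHDA. Rbm47, Ecrg4, Cilp2 and Gm29508 made up the 10 largest rises, up to 3.71 on the log2 scale for Rbm47, an RNA-binding protein of epithelial and myeloid cells. In the same RNA-seq comparison all 12 microglia markers rose (median log2 fold change 3.27), 4 of 9 endothelial markers rose and 19 of 20 pan-neuronal genes fell (median -1.17). Th, the dopamine-synthesis enzyme that marks the lesioned neurons, had 115 and 135 CPM in sham, 2.15 in 6-OHDA and 11.5 and 8.03 in 6-OHDA+NDST3 (log2 -5.86, SE 0.33, edgeR adjusted p = 0.00823). None of the 12 microglia markers had an H3K27ac region. The part of cell composition in the RNA changes of the genes of lost regions was not tested.

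**Figure D5:**
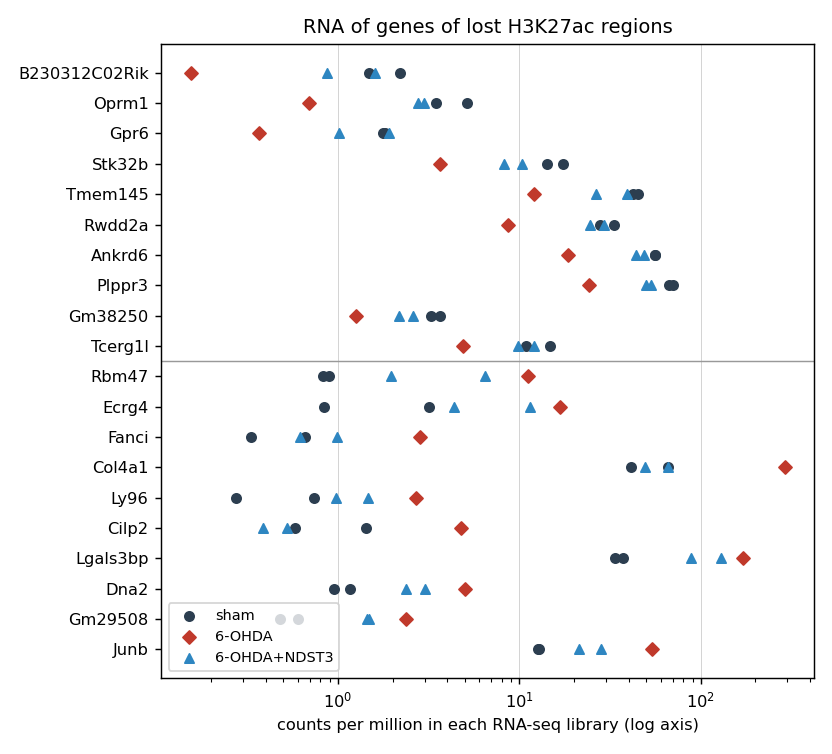
CPM (horizontal log axis) in each of the 5 RNA-seq libraries for the 10 largest falls (above the line) and the 10 largest rises (below it) among genes of lost regions that passed the test in 6-OHDA against sham, 1 point per library. In each gene the 6-OHDA library lies outside both sham libraries, since the genes were chosen so.

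None of the 8 oxidative phosphorylation genes of lost regions passed the test after the lesion, with log2 fold changes from -0.60 (Cox5b, edgeR adjusted p = 0.0546) to 0.42 (Cox8b, at most 0.352 CPM in any library). In the whole list 17 of 93 genes fell and 1 rose. None of the 6 splicing factors of lost regions passed it. Snrpa, at 0.5 in the 6-OHDA column of H3K27ac, had 48.3 and 46.5 CPM in sham, 45 in 6-OHDA and 45.4 and 46.6 in 6-OHDA+NDST3. Among the ribosomal protein genes Rps15a rose (log2 0.44), as did 76 of 101 in the list. Rpl29 differed more between libraries of the same group than between groups, with 8.46 and 53.7 CPM in sham, so its fold change is uncertain. Of the 15 Zfp genes 4 fell (Zfp2, Zfp382, Zfp622 and Zfp668, log2 -0.50 to -0.93) and 0 rose by edgeR's adjusted p, 57 falling and 20 rising among 390 in the list. Gpx4 and Prdx2 had log2 fold changes of 0.10 and -0.02 and did not pass. Kat2b rose (log2 0.41, SE 0.10, edgeR adjusted p = 0.0331).

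In 6-OHDA+NDST3 against 6-OHDA, which uses the same 6-OHDA library, 33 of the 451 genes rose (7.32%) and 25 fell (5.54%). The background was 11.8% higher and 6.46% lower over genes with a region, and 9.06% and 6.59% over all genes tested. By the 2-fold rule with unadjusted p, 20 were higher and 18 lower (4.43% and 3.99%, against 6.29% and 4.62% of genes with a region and 7.3% and 8.37% of all). The median log2 fold change was 0.05 over the genes of lost regions and 0.05 over genes with any region. Col4a1 (log2 -2.33), Cilp2, Myl9, Sertad1 and Junb (-1.13) had the largest falls, and B230312C02Rik, Oprm1 (2.04), Rwdd2a, Tmem145 and Stk32b (1.33) the largest rises. Myl9, a myosin light chain of smooth muscle, had 22.9 and 18 CPM in sham, 59.3 in 6-OHDA and 11.7 and 11.9 in 6-OHDA+NDST3. Genes with a 6-OHDA+NDST3 H3K27ac value at or above sham (114 tested) gave 10 higher and 4 lower, with a median log2 fold change of 0.13, and genes still at most 0.5 of sham (66 tested) gave 4 higher and 5 lower, with a median of -0.02. The difference between these subsets was not tested. With sham replicate 1, sham replicate 2 or 6-OHDA+NDST3 replicate 1 left out, or with only the libraries of the groups compared, edgeR called 0 of the genes of lost regions, with 121, 120, 112 and 115 genes at an unadjusted p under 0.05, and DESeq2 on all libraries called 62 higher and 45 lower (23.5%, against 25.7% of all genes).

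Between 6-OHDA+NDST3 and sham edgeR called 0 of the 451 genes, as it called 0.0% of all genes tested. This does not show equal RNA. Even Th, with 11.5 and 8.03 CPM against 115 and 135 in sham, was not called (log2 -3.68, SE 0.21, edgeR adjusted p = 0.103). At an unadjusted p under 0.05 there were 45, against 2744 of the 19300 genes tested, and DESeq2 called 11 higher and 5 lower (3.52%, against 5.16% of all genes). With the call at 2-fold or more and an unadjusted p under 0.05, 7 were higher (1.55%) and 1 lower, against 2.06% and 0.164% of genes with a region and 4.78% and 1.08% of all genes. The median log2 fold change was 0.01 over the genes of lost regions and 0.01 over all genes tested.

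The ATAC-seq values at these genes showed no general drop with the lesion. The ATAC-seq table had 98 regions at 70 of the 490 genes, and 20 of the 512 lost regions (3.91%) shared at least 1 base with an ATAC-seq region, against 3.35% of all H3K27ac regions. Over the 98 regions the median ATAC-seq value was 18.2 in sham, 18.9 in 6-OHDA and 22.4 in 6-OHDA+NDST3. The median log2 ratio of 6-OHDA to sham was 0.17 (quartiles -0.28 and 0.42), against 0.11 over all 3537 regions. Of the 98, 1 was at least 2 times lower and 2 were at least 2 times higher, against 5.06% and 4.58% of all regions. Of the 20 that shared bases with a lost region, 0 were past 2-fold in either direction, and their median log2 ratio was 0.14.

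The 1 ATAC-seq region at least 2 times lower was that of Txndc5, a protein disulfide isomerase of the endoplasmic reticulum, with 11.3 in sham, 2.0 in 6-OHDA and 8.0 in 6-OHDA+NDST3. Its lost H3K27ac region had 22.1, 7.95 and 21.4, but lay elsewhere, centred at -156 bases from the start against -862 for the ATAC-seq region. Pop4, Ankle2, Cacnb2 and Cab39l followed, with log2 ratios of -0.77 to -0.97. Rbm47 and Kctd15 had the 2 regions at least 2 times higher. Rbm47 had an ATAC-seq value of 4.82 in sham, 15.3 in 6-OHDA and 4.07 in 6-OHDA+NDST3, while its H3K27ac value was 12.1, 5.45 and 5.95. The 2 Rbm47 regions were apart, the ATAC-seq region centred at 221 and the H3K27ac region at -194 bases from the start. Zfand6, Zfp580 and Cfap20dc came next, at 0.76 to 0.99. None of the ATAC-seq regions named here shared a base with a lost region. In 6-OHDA+NDST3 against 6-OHDA the median log2 ratio over the 98 regions was 0.07, against 0.11 over all, with 6 at least 2 times lower and 2 at least 2 times higher (background 3.53% and 4.41%). Of the 20 regions that shared bases with a lost region, 2 were at least 2 times lower (10.0%) and 0 higher in this comparison, with a median of 0.17. With 1 library per group these differences have no replicate check.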

How the data were processed

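CUT&RUN for H3K27ac, ATAC-seq and RNA-seq tables of mouse brain were used as deposited. The H3K27ac and ATAC-seq tables hold a tag signal per region and group, which the authors normalised in a way not given in the sources used here; Trim Galore and Bowtie are in the submitters' processing notes. The RNA-seq table holds read counts and FPKM per gene that the authors made with HISAT2 and StringTie, and lists only genes with a read in every library. The study names mm10, but the highest end on chromosome 17 in the H3K27ac table (95172319) exceeds its length in GRCm38 (94987271), and only 2.77% of start sites implied by the distances lay within 5 bases of GRCm38 ones. Coordinates were therefore not read against a genome, and genes were joined by name (449 of 490 by symbol, 455 with RefSeq synonyms). The 8 rows without a gene name took part in counts of regions only. ATAC-seq regions without a value in 2 columns (45) were left out.

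Signal ratios are log2((a + 1)/(b + 1)). RNA-seq counts were tested with edgeR 4.0.16 (TMM, filterByExpr, quasi-likelihood, all 5 libraries, 19300 of 20328 genes, 2 residual degrees of freedom, Benjamini-Hochberg over all genes). The SE given with a log2 fold change is its absolute value divided by the square root of the quasi-likelihood F statistic, since edgeR reports none. Alternatives included limma 3.58.1 on logged FPKM and DESeq2 1.42.0. RNA-seq library totals were 51003699 to 70533326 counts. For H3K27ac and ATAC-seq the depth is unknown. The edgeR step was tested on simulated data. The members, gene lists and tests were chosen with earlier results of these data known. Named genes were the 10 lost regions highest in sham, the 10 lowest ratios, 5 at each end of the NDST3 to sham ratio (sham at least 5), 3 on each side of the threshold, the 10 largest RNA falls and rises (5 each for 6-OHDA+NDST3 against 6-OHDA) among genes past the test with a mean of at least 1 CPM and no overlap between libraries, 5 ATAC-seq regions at each end, listed genes with a lost region, and Ncoa7, Th and Ndst3. No gene had 3 or more lost regions. Single-cell data were not used here. The values of 1 gene are not reported here.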

Additional observations from a re-analysis of the deposited data

How the results depend on the processing

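The number of lost regions was 172 with a pseudocount of 5 and 103 at a ratio of at most 0.33, and 372 to 711 under the other alternatives. The share of lost regions nearer to sham than to 6-OHDA in the NDST3 column was 59.3% with a pseudocount of 5, 69.9% at a ratio of at most 0.33, 31.9% with the columns scaled to the same median and 33.1% with the same sum. The median log2 ratio of NDST3 to sham was -0.55 at a ratio of at most 0.33, -0.94 at the same median and -0.92 at the same sum, and stayed below 0 under all. Those scalings brought the median over all regions from 0.53 to -0.05 and -0.03. The counts of genes of lost regions called in RNA-seq, both directions together, were 158 for 6-OHDA against sham, 58 for 6-OHDA+NDST3 against 6-OHDA and 0 for 6-OHDA+NDST3 against sham. Leaving out 1 library gave 0 to 166, 0 to 64 and 0 to 2, with the spread of any group down to 1 library borrowed from the rest. A fold change of at least 2 with unadjusted p gave 84, 38 and 8, and genes of regions at a ratio of at most 0.33 gave 29, 12 and 0. DESeq2 called 107 for 6-OHDA+NDST3 against 6-OHDA and 16 for 6-OHDA+NDST3 against sham. A fit on only the groups compared gave 0 for 6-OHDA+NDST3 against 6-OHDA. Sham and 6-OHDA+NDST3 share replicate numbers, but the deviations of replicates 1 correlated at -0.337 over 19300 genes, so the numbers mark no pairing. The replicate block gave 34, 0 and 0, and the crossed replicate block, chosen after seeing the data, 176, 91 and 16. The cause of these differences was not tested. The ATAC-seq median for 6-OHDA+NDST3 against 6-OHDA turned from 0.07 to -0.05 with the columns scaled to the same median, with all regions at -0.01. Alternatives were run for the named largest RNA falls and rises and for Ncoa7, Th and Ndst3. None of these fold changes turned its direction, but many were weaker under some alternatives, that of Ecrg4 after the lesion under 9. The fold changes of the other named genes, such as Dnajc6, Syt1, Kat2b and Gpx4, were not checked in this way. Depth of the H3K27ac and ATAC-seq columns is unknown, and low values near 0.5 limit the lowest ratios.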
